A study of Homo sapiens with 2 samples.

Results

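The transcripts described here are those of 44 genes that cells use to enter mitosis, attach and separate their chromosomes, and divide. They were chosen by symbol with earlier results of these data known, so their shares beside those of all genes are a description only. All 44 were found among the 13137 genes of the deposited tag table, each under an Entrez Gene ID with the same RefSeq symbol. The cells were A549, a human lung adenocarcinoma line, infected with a lentivirus carrying a hairpin under a doxycycline-inducible H1TetO promoter and selected with puromycin as a polyclonal line. The group named shRNA-SOX2 carried 1 hairpin against SOX2 (A549-H1tetO-shRNA-SOX2), and the control group shRNA-Con carried a scrambled hairpin (A549-H1tetO-shRNA-Con). Both were kept with doxycycline for 4 days, and 1 digital gene expression library was made for each, in which a short sequence tag is counted for each captured mRNA. The question was which transcripts differ when SOX2, a stem cell transcription factor, is silenced.

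Passage through mitosis is driven by the kinase CDK1 bound to B-type cyclins. The spindle checkpoint holds chromosome separation back until every kinetochore is attached, after which the anaphase-promoting complex (APC/C) marks securin and the cyclins for destruction and separase opens the cohesin rings. Many of these genes are transcribed late in the cell cycle, when MYBL2 and FOXM1 act with the MuvB complex, and are held off in resting cells by the DREAM complex, which binds a promoter element called the cell cycle genes homology region (CHR). In a proliferating tumour line such as A549 their transcripts are used as a reading of how many cells are in G2 and mitosis.

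The libraries held 2304184 gene tags for shRNA-Con and 2093816 for shRNA-SOX2, which were 65.5% and 60.6% of their clean tags. The targeted gene, SOX2, gave 16 tags against 23, a ratio of the library named for its hairpin to the control of 1.58 (95% Clopper-Pearson interval 0.80 to 3.20), and Fisher's exact test gave an adjusted p of 0.333. The knockdown is therefore not seen in the tags, which count mRNA and not protein. The paper reports silencing of SOX2 in this line by Western blotting after doxycycline. The second library is called the library labelled shRNA-SOX2 throughout. Of 14 markers of A549 and lung epithelium, 10 were analysed, and AKR1C1, NKX2-1, SFTPB and SFTPC were not found in the table. The 10 had a summed level of 16651 and 21080 tags per 1000000 gene tags, but single markers moved both ways. KRT8 (7702 and 12729 tags), KRT19 (35 and 127) and ALDH1A1 (7035 and 14268) were called higher, KRT18 (10318 and 7887), AKR1C2 (770 and 286), AKR1C3 (3385 and 1492) and AKR1B10 (6039 and 4581) were called lower, and EPCAM was low at 8 and 4 tags. For other cell types, 4 of 10 markers were analysed, which summed to 51 and 50 tags, of which COL1A1 gave 44 and 43. Levels scaled in this way are called normalised tags. In what follows, tags are given for shRNA-Con first and for the library labelled shRNA-SOX2 second. A log2 fold change is the second over the first after division by gene tags, with a count below 3 set to 3. A gene is called when Fisher's exact test, adjusted by Benjamini and Hochberg over all 13137 genes, passes an FDR of 0.001. With 1 library a group, such a call compares these libraries and covers counting error only. In bulk RNA, fewer cells in mitosis and less of a transcript in each such cell cannot be told apart.

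Promoter stretches of 7 members are shown first, since many of the genes, though not all, hold these elements, for which they were not chosen. All run from 120 bases before the annotated start to 30 after it, 5′ to 3′ on the gene's strand, from RefSeq on GRCh38.p14. Capitals mark the CHR letters TTTGAA and the CCAAT letters, on either strand (TTCAAA and ATTGG), and neighbouring matches can overlap. HMMR, PRC1, CENPA and KIF23 are members called lower that hold CHR letters, NEK2 is a member called lower with CCAAT letters and no CHR, and PLK1 and MKI67 hold CHR letters and were not called.
HMMR, chr5:163460512-163460661, plus strand: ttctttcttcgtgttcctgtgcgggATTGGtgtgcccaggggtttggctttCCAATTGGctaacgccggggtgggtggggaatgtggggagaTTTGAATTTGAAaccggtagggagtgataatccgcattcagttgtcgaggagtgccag
PRC1, chr15:90994506-90994655, minus strand: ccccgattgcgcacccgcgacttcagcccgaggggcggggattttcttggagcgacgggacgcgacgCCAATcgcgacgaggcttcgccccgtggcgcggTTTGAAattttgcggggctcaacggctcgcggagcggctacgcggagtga
CENPA, chr2:26785936-26786085, plus strand: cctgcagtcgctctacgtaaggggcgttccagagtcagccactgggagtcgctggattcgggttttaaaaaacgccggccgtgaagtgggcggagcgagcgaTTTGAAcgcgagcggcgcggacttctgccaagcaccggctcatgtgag
KIF23, chr15:69414229-69414378, plus strand: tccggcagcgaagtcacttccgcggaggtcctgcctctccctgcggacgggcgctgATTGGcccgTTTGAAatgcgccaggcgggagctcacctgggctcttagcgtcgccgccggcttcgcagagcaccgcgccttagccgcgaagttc
NEK2, chr1:211675592-211675741, minus strand: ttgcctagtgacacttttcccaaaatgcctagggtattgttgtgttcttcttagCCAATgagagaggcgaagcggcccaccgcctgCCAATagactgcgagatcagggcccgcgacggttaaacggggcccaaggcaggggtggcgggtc
PLK1, chr16:23678769-23678918, plus strand: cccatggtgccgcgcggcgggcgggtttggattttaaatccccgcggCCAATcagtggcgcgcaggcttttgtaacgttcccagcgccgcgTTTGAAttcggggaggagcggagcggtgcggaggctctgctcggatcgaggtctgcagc
MKI67, chr10:128126394-128126543, minus strand: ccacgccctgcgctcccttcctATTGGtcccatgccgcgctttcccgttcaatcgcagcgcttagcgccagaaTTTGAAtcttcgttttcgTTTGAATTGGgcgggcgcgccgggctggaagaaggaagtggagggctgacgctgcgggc

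In the library labelled shRNA-SOX2, 11 of the 44 mitotic genes (25.0%) were called lower and 0 were called higher. The genes called lower were TOP2A, HMMR, PRC1, CENPA, SMC4, CCNB1, NEK2, STAG1, MYBL2, KIF23 and CENPF. Over all genes of the table the same test called 12.2% lower and 9.53% higher. The members' summed tags went from 6350 to 4233, or from 2756 to 2022 normalised tags, a ratio of 0.734 (0.705 to 0.763). Single members were spread widely, from KIF2C at a log2 fold change of −2.01 to KIF11 at 0.82 among the 43 whose tags over both libraries reached 20. Their median log2 fold change was −0.58, against −0.10 over the 10045 genes of the table with as many tags. Fewer normalised tags were counted for 36 of the 43 (83.7%), against 55.1% of all such genes.

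Calls depend on how many tags a gene has. The members had a median of 135.5 tags over both libraries against 89 over all genes, with a range of 18 to 1550. Among the 29 members with at least 100 tags, 8 were called lower and 0 higher, where 22.5% and 16.6% of all genes of that depth were, so the share called was nearer to that of the table, while the median stayed at −0.53 against −0.13. A fall of at least 2-fold was seen for 9 of the 43 members and a gain of that size for 0, where 13% and 10.4% of all genes passed it. The ratio's interval lay below 1 for 29 members, above 1 for 2 (KIF11 and PLK1) and held 1 for 13. Such intervals were not counted over all genes, so these counts describe the members only. Scaling moved the number called without turning its direction, with 9 lower and 0 higher after TMM and 17 lower and 0 higher per clean tag, where all genes gave 1381 lower and 1414 higher after TMM and 2010 lower and 1008 higher per clean tag. When a coefficient of variation of 0.2 between cultures was assumed, edgeR's exact test called 0 members at FDR 0.001, and 48 genes lower and 65 higher in the whole table.

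**Figure D1:**
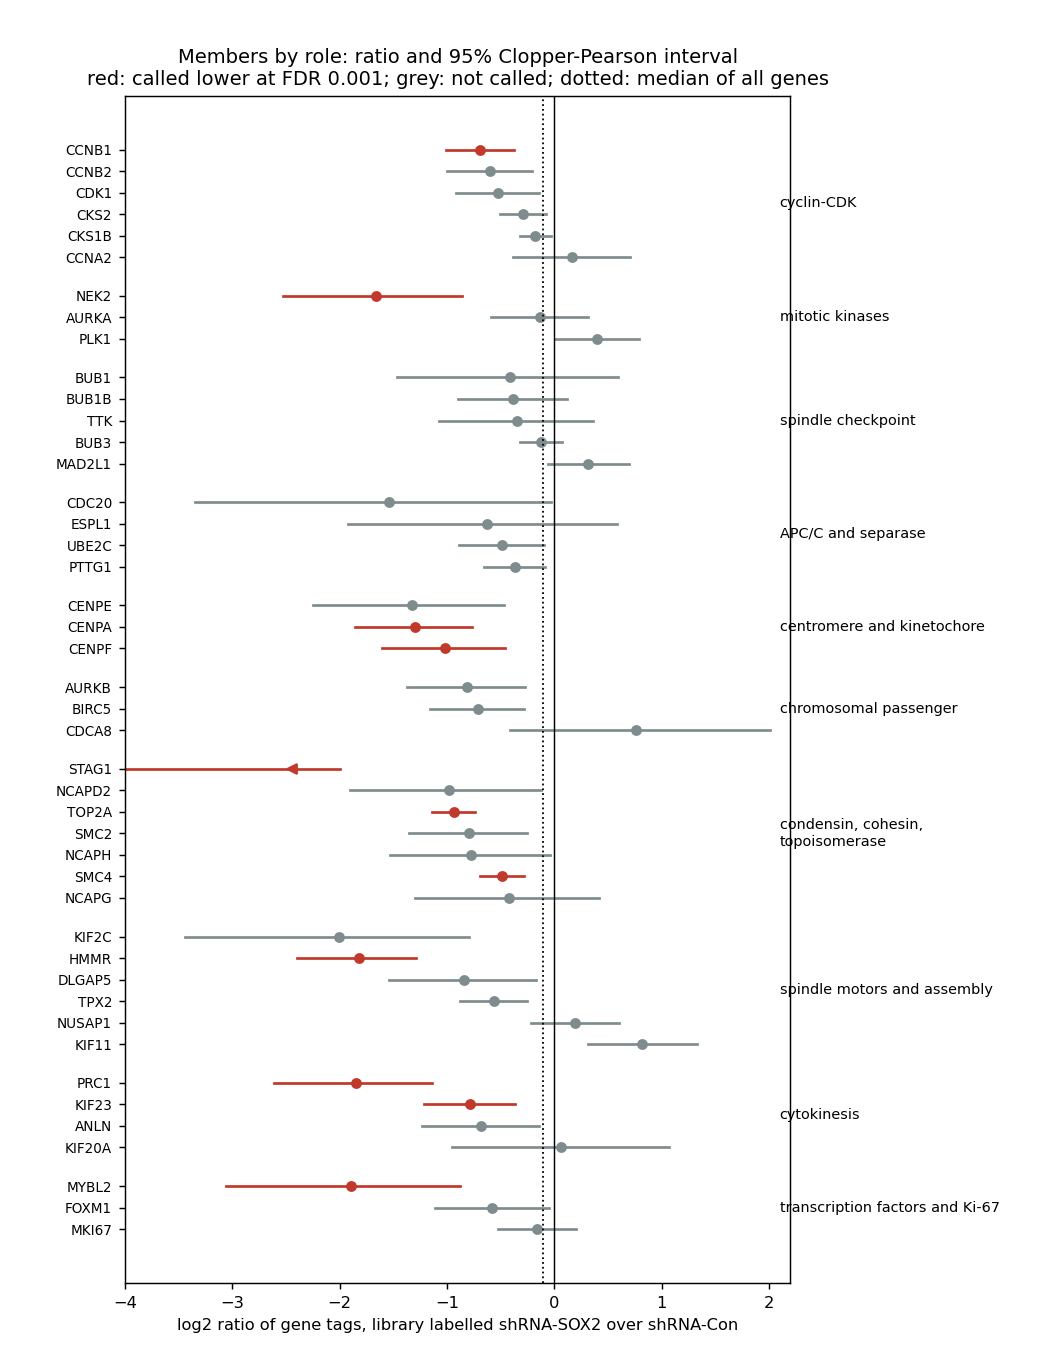
Log2 ratio of normalised tags (library labelled shRNA-SOX2 relative to shRNA-Con) for each of the 44 members, grouped by role, with 95% Clopper-Pearson intervals, 1 library a group. Red points are the 11 called lower, grey points were not called, the dotted line is the median of all genes at −0.10, and the arrow marks STAG1, whose 0 tags are drawn at the floor of 3 and whose interval runs off the axis. Most points lie left of both lines, and KIF11 and PLK1 are the members whose interval lies above 0.

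Roles hold 3 to 7 genes each, so counts within them are a description only, beside 12.2% of all genes called lower. Among the cyclins and CDK1 with its partners, 1 of 6 was called lower. Cyclin B1 (CCNB1), which activates CDK1 at mitotic entry, had 238 and 134 tags, a ratio of 0.620 (0.498 to 0.769), with an adjusted p of 4.57e-05 by Fisher's exact test. CCNB1 lies on chromosome 5 from 69167010 to 69178245 on the plus strand, and this and the gene positions that follow are from GENCODE release 29 on GRCh38. Its relative cyclin B2 (CCNB2) had 145 and 87 tags, differed by −0.60 on the log2 scale and was not called (adjusted p = 0.00717 by the same exact test). The kinase itself, CDK1, had 149 and 94 tags and a log2 fold change of −0.53 (Fisher's exact test, adjusted p = 0.0179). Cyclin A2 (CCNA2), which acts from S phase up to mitosis, had 59 and 60 tags and an interval of 0.768 to 1.63. The small CDK-binding subunits CKS1B and CKS2 had the smallest differences of the 29 members whose interval lay below 1, with 859 and 691 tags (log2 fold change −0.18) and 415 and 308 tags (−0.29). CKS1B has 6 named pseudogenes, so its tags are uncertain. The group's summed ratio was 0.811 (0.756 to 0.870).

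Of the 3 mitotic kinases, NEK2 stood apart. NEK2, a centrosomal kinase that loosens the link between the centrosomes, had 59 and 17 tags, a ratio of 0.317 (0.173 to 0.551), with an adjusted p of 5.13e-05 by Fisher's exact test. It lies on chromosome 1 from 211658657 to 211675630 on the minus strand and has 2 named pseudogenes. Aurora A (AURKA), which matures the spindle poles, had 93 and 77 tags, with an interval of 0.665 to 1.25. PLK1, the polo kinase needed at nearly every mitotic step, had more tags in the library labelled shRNA-SOX2, at 103 and 123, with a log2 fold change of 0.39 and an interval of 1.003 to 1.72, which did not pass (Fisher's exact test, adjusted p = 0.105). Exons of ERN2 and AC008870.3 overlap PLK1 on the other strand.

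The 5 spindle checkpoint genes gave 0 calls, and their summed tags of 745 and 635 had a ratio of 0.938 (0.842 to 1.04). BUB3 gave most of the summed tags, and the median log2 fold change of the 5 genes was −0.35. The checkpoint kinase BUB1 had 22 and 15 tags, and BUB1B (BUBR1), part of the inhibitor of the APC/C, had 82 and 57. BUB3, which brings both to kinetochores, had the most tags of the group at 486 and 405 and the narrowest interval, 0.802 to 1.05. TTK (MPS1), which starts checkpoint signalling, had 42 and 30 tags. MAD2L1, the checkpoint's APC/C inhibitor MAD2, had 113 and 128 tags and a log2 fold change of 0.32 (Fisher's exact test, adjusted p = 0.187). All 5 intervals held 1, so differences were not detectable at this depth.

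The 4 genes of APC/C activation and separation all had fewer normalised tags and gave 0 calls, with a summed ratio of 0.734 (0.630 to 0.854). Over all genes, 52.3% had fewer normalised tags. The APC/C activator CDC20 had 16 and 5 tags, which left an interval as wide as 0.0985 to 0.982. UBE2C, the ubiquitin-conjugating enzyme of the APC/C, had 142 and 92 tags and a log2 fold change of −0.49 (Fisher's exact test, adjusted p = 0.0359), and 4 pseudogenes carry its name. Securin (PTTG1), the separase inhibitor, had 257 and 181 tags (−0.37, with an adjusted p of 0.0255 by Fisher's exact test). Separase (ESPL1), the protease that cuts cohesin, had 17 and 10 tags, and its interval held 1.

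The 3 centromere and kinetochore genes had the lowest summed ratio of the roles, 0.437 (0.341 to 0.555). Of these 3 genes, 2 were called lower, against 12.2% of all genes. CENPA, the histone H3 variant that marks the centromere, had 111 and 41 tags, a ratio of 0.406 (0.277 to 0.586), with an adjusted p of 1.79e-06 by Fisher's exact test. CENPA lies on chromosome 2 from 26764289 to 26801067 on the plus strand. CENPF, a large kinetochore protein of G2 and mitosis, had 87 and 39 tags, a ratio of 0.493 (0.329 to 0.728) and an adjusted p of 0.000775 by the same exact test. It lies on chromosome 1 from 214603195 to 214664588 on the plus strand, and after TMM scaling it no longer passed (Fisher's exact test, adjusted p = 0.00205). The kinetochore motor CENPE had 44 and 16 tags, with a log2 fold change of −1.32 close to that of CENPA, and did not pass (Fisher's exact test, adjusted p = 0.00429).

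The chromosomal passenger complex corrects faulty attachments at the inner centromere, and 0 of its 3 genes were called. Its kinase Aurora B (AURKB) had 85 and 44 tags (log2 fold change −0.81, with an adjusted p of 0.00907 by Fisher's exact test). Survivin (BIRC5), which places the complex on chromosomes, had 126 and 70 tags (−0.71, with an adjusted p of 0.00377 by Fisher's exact test). Borealin (CDCA8) had 11 and 17 tags, and its interval of 0.751 to 4.02 held 1.

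**Figure D2:**
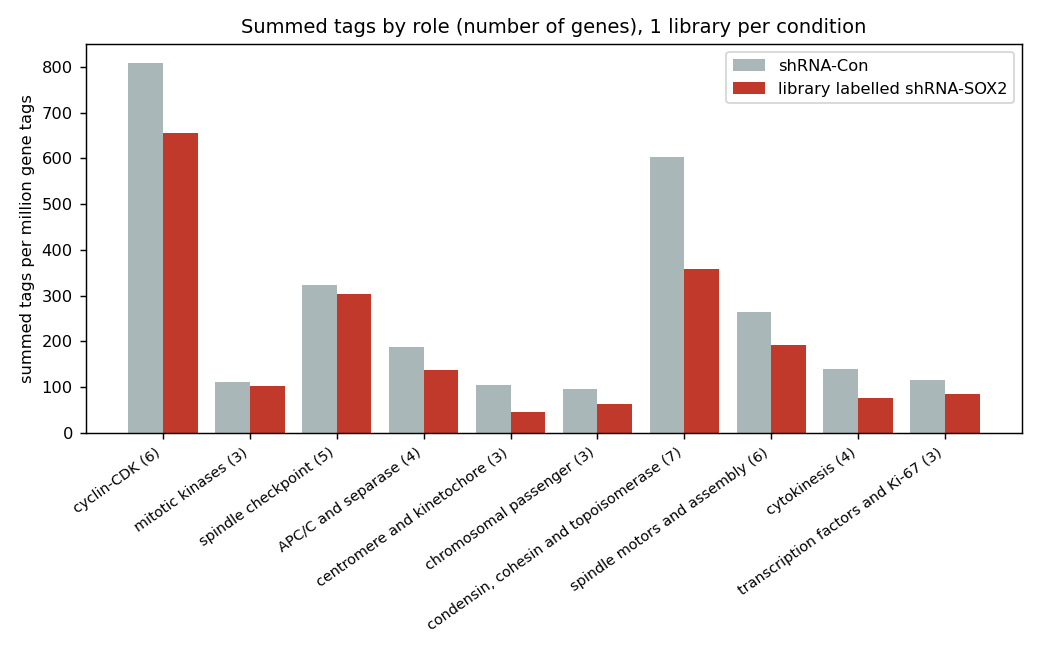
Summed normalised tags (per 1000000 gene tags) of the members of each role, grey for shRNA-Con and red for the library labelled shRNA-SOX2, with the number of genes in brackets and 1 library a condition, so without error bars. The grey bar is the higher in each of the 10 roles, by least for the mitotic kinases (ratio 0.936) and the spindle checkpoint (0.938) and by most for the centromere and kinetochore genes (0.437).

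Of the 7 genes for chromosome structure, 3 were called lower, against 12.2% of all genes. All 7 had fewer normalised tags, as did 52.3% of all genes. Topoisomerase II alpha (TOP2A), which untangles sister DNA before anaphase, had 661 and 314 tags, a ratio of 0.523 (0.456 to 0.599), and its adjusted p of 6.45e-21 by Fisher's exact test was the smallest of the members. TOP2A lies on chromosome 17 from 40388516 to 40417950 on the minus strand. The condensin ATPase SMC4 had 511 and 331 tags, a ratio of 0.713 (0.619 to 0.820) and an adjusted p of 9.11e-06 by the same exact test. It lies on chromosome 3 from 160399274 to 160434962 on the plus strand, where exons of IFT80 and TRIM59 overlap it on the other strand, and 1 pseudogene carries its name. Its partner SMC2 had 84 and 44 tags and a log2 fold change of −0.79 (Fisher's exact test, adjusted p = 0.0113). The remaining condensin I subunits were thin in tags, with NCAPD2 at 37 and 17, NCAPH at 47 and 25 and NCAPG at 31 and 21, and none was called. STAG1, a subunit of the cohesin ring, had 18 and 0 tags. With its 0 tags set to the floor of 3, it was 5.45-fold lower, which is a convention and not a bound. The interval of the ratio, which counts the error of both counts, ran from 0 to 0.2503, and Fisher's exact test gave an adjusted p of 6.26e-05. The floor of 3 stands for 0.000143% of the gene tags of the library labelled shRNA-SOX2, or 1.43 normalised tags. STAG1 lies on chromosome 3 from 136336233 to 136752403 on the minus strand, is the member with the fewest tags, and overlaps exons of PCCB on the other strand. Its paralogue STAG2, which is no member, had 265 and 229 tags and a log2 fold change of −0.07.

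The spindle motors and assembly factors differed most among themselves. HMMR, a microtubule-binding protein of the spindle poles, had 140 and 36 tags, a ratio of 0.283 (0.191 to 0.411), with an adjusted p of 1.62e-12 by Fisher's exact test. HMMR lies on chromosome 5 from 163460203 to 163491945 on the plus strand and overlaps its antisense gene HMMR-AS1, and whether the counting used strand is not given in the sources used here. KIF2C (MCAK), which takes microtubules apart at centromeres, had 31 and 7 tags and the lowest log2 fold change of the members with 20 tags, −2.01, yet just missed the threshold (Fisher's exact test, adjusted p = 0.00116). TPX2, the activator of Aurora A, also lay just outside it, with 228 and 140 tags and a ratio of 0.676 (0.544 to 0.838). DLGAP5 (HURP), a stabiliser of kinetochore fibres, had 57 and 29 tags (log2 fold change −0.84, with an adjusted p of 0.0356 by Fisher's exact test). KIF11 (Eg5), the motor that pushes the spindle poles apart, went the other way, with 55 and 88 tags and a ratio of 1.76 (1.24 to 2.51). It did not pass at FDR 0.001 (Fisher's exact test, adjusted p = 0.00401) and was the 1 member called higher at an FDR of 0.05. The microtubule bundler NUSAP1 had 43.4 and 49.7 normalised tags, with an interval of 0.861 to 1.52.

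Of the 4 cytokinesis genes, 2 were called lower, against 12.2% of all genes. PRC1, which bundles the microtubules of the central spindle, had 83 and 21 tags, a ratio of 0.278 (0.164 to 0.454), with an adjusted p of 9.05e-08 by Fisher's exact test. PRC1 lies on chromosome 15 from 90966038 to 90995629 on the minus strand and overlaps PRC1-AS1. KIF23 (MKLP1), the motor of the centralspindlin complex at the same structure, had 138 and 73 tags, a ratio of 0.582 (0.432 to 0.779) and an adjusted p of 0.000684 by the same exact test. It lies on chromosome 15 from 69414246 to 69448427 on the plus strand, and with TMM scaling it no longer passed (Fisher's exact test, adjusted p = 0.00286). Exons of AC027237.3 overlap KIF23 on the other strand. Anillin (ANLN), the scaffold of the contractile ring, had 81 and 46 tags (log2 fold change −0.68, with an adjusted p of 0.0355 by Fisher's exact test). KIF20A (MKLP2), which brings the passenger complex to the midzone, had 19 and 18 tags and a log2 fold change of 0.060, which turned to −0.053 per clean tag.

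Of the factors that transcribe this programme, MYBL2 was called lower. MYBL2 (B-MYB), which joins MuvB in late S phase, had 41 and 10 tags, a ratio of 0.268 (0.120 to 0.545) and an adjusted p of 0.000294 by Fisher's exact test. MYBL2 lies on chromosome 20 from 43667019 to 43716496 on the plus strand. FOXM1, which follows it in G2, had 82 and 50 tags and a log2 fold change of −0.58 (Fisher's exact test, adjusted p = 0.0725). MKI67, whose protein Ki-67 coats mitotic chromosomes and is used as a proliferation marker, had 145 and 118 tags and an interval of 0.696 to 1.15. That interval held 1, lay above that of CENPA (0.277 to 0.586) and overlapped that of FOXM1 (0.462 to 0.965).

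**Figure D3:**
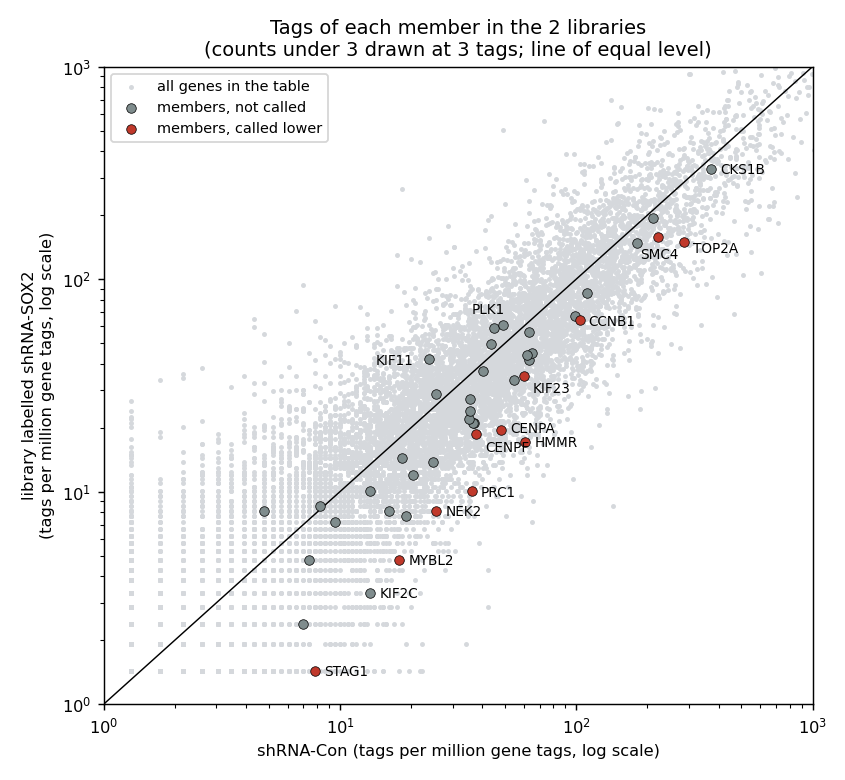
Normalised tags (per 1000000 gene tags, log scales), shRNA-Con on the x axis and the library labelled shRNA-SOX2 on the y axis, for the members (red, called lower; dark grey, not called) over all genes of the table (light grey), with the line of equal level, counts under 3 drawn at 3 and the most abundant genes beyond the axes. The red points lie below the line at levels from STAG1 at 7.81 to TOP2A at 286.9 normalised tags in shRNA-Con, inside the cloud of other genes, and KIF11 lies above the line.

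Further genes of the same processes were read in the same way. Of 60 other mitosis genes, 57 were analysed, and 12 were called lower (21.1%, against 12.2% of all genes) and 3 higher (5.26%, against 9.53%), with a median log2 fold change of −0.55 over the 49 with enough tags and a summed ratio of 0.779 (0.744 to 0.815). Those lower included MASTL, the kinase that shuts off PP2A-B55 at mitotic entry, with 21 and 2 tags, and the kinetochore genes DSN1 (96 and 32) and ZWINT (65 and 24). OIP5, which helps load CENPA, had 67 and 24 tags and was called lower. HJURP (162 and 163 tags) and MIS18A (34 and 24), which also serve CENPA loading, were not called. Those higher were the spindle proteins CKAP2 (66 and 108 tags) and TACC3 (172 and 280) and the kinetochore gene PMF1 (126 and 179). The split was 8 lower and 4 higher with TMM, and 14 and 1 per clean tag, where all genes gave 1381 and 1414, and 2010 and 1008.

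Of 15 constitutive centromere proteins, 2 were called lower (13.3%) and 1 higher (6.67%), shares near the 12.2% and 9.53% of all genes, with a median of −0.25. The lower ones were CENPB (300 and 133 tags), which binds alphoid DNA, and CENPK (164 and 82), and the higher one was CENPS (39 and 73). Among 14 genes, the core APC/C subunits and their activator FZR1, 4 were called lower (28.6%) and 2 higher (14.3%). Their summed ratio was 0.947 (0.890 to 1.01), with the most tags from ANAPC16. The median log2 fold change of the 14 was −0.52, and 10 had fewer normalised tags. ANAPC1 had 36 and 8 tags and CDC16 had 249 and 99, while CDC27 went from 157 to 230 and ANAPC16 from 563 to 663. Among 17 genes of cohesin, its regulators and condensin II, with the topoisomerase TOP2B, 4 were called lower (23.5%) and 0 higher, namely NCAPG2 (107 and 37 tags), PDS5A (283 and 134), SMC1A (213 and 101) and SMC3 (401 and 263), the last pair being the ATPases of the ring in which STAG1 sits. Of 11 DREAM and MuvB subunits, E2F5, a repressor-type E2F, was the 1 called lower (9.09%), with 138 and 49 tags, and 0 were called higher.

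The wider annotation gave a median nearer to that of all genes. The deposited process terms for mitosis, chromosome segregation, cell division, cytokinesis or the spindle held 523 genes, of which 39 were members, since FOXM1, HMMR, KIF20A, MKI67 and MYBL2 carry no such term. Of the 484 that are no members, 15.7% were called lower and 10.3% higher, beside 12.2% and 9.53% of all genes, and their median was −0.19. CDKN1A, the CDK inhibitor p21, which carries such a term, had 696 and 1941 tags and was among the genes called higher in this set. Called genes with larger gains were EGF (0 and 16 tags), CYP1A1 (0 and 15), USH1C (0 and 13) and ID4 (16 and 60). The largest falls among called genes were those of ERCC1 (97 and 9 tags), HORMAD1 (42 and 5) and APBB2 (66 and 11).

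Genes of DNA replication, which the same cells transcribe earlier in the cycle, were set beside them for comparison. The summed tags of 43 such genes went from 3538 to 4143, a ratio of 1.29 (1.23 to 1.35), beside 0.734 (0.705 to 0.763) for the mitotic genes. These intervals pool the tags of different genes and cover counting error only, not the spread between genes. The median was 0.19, and 17 of the 43 had fewer normalised tags and 26 more. Of the 43, 2 were called lower (4.65%, against 12.2% of all genes) and 9 higher (20.9%, against 9.53%). Those higher included the thymidylate synthase gene TYMS (227 and 436 tags), the flap endonuclease FEN1 (82 and 184) and the helicase subunits MCM4 (38 and 83) and MCM2 (57 and 97). RFC4 (81 and 34 tags) and the histone mRNA binder SLBP (log2 fold change −0.99) were called lower. The split was 1 lower and 10 higher with TMM and 3 and 7 per clean tag. Whether these sets differ beyond the spread between cultures cannot be tested with 1 library a group.

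RefSeq promoter windows, from 250 bases before to 50 after the start, were matched for 37 of the 44 members. AURKA, BIRC5, BUB3, FOXM1, TPX2, TTK and UBE2C were not matched. TTTGAA on either strand was found for 25 of the 37 (67.6%), against 18.2% of 27305 genes with such windows and 13.6% of the 8293 measured with at least 20 tags. CCAAT on either strand was found for 29 (78.4%), against 39.7% and 43.5%, and both for 20 (54.1%), against 7.26% and 5.57%. On the gene's own strand and within 50 bases before the start, TTTGAA stood in 13 members (35.1%) and in 1.52% of all genes. It began 20 bases before the start in PRC1, 18 in CENPA, 28 and 22 in HMMR and 29 in PLK1, as in the stretches printed above. The E2F-type letters TTTGGCGC or TTTCGCGC, on either strand, stood in 2 members, CDK1 and NUSAP1 (5.41%, against 1.40% of all genes and 2.56% of those measured).

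The fold changes of members with and without these letters overlapped. Of the 25 with TTTGAA, 7 were called lower, with a median of −0.60 and a range of −1.84 to 0.82. Of the 12 without, 4 were called lower (NEK2, CCNB1, MYBL2 and STAG1), with a median of −0.77. PLK1 and MKI67 carry the letters within 50 bases before the start, as PRC1 and HMMR do, and PLK1 had a log2 fold change of 0.39 and PRC1 one of −1.84. Measured genes that are no members had a median of −0.11 both with the letters (1099 genes) and without (7158 genes), and 14.7% and 15.8% were called lower. For the 95 of them with TTTGAA on their own strand within 50 bases of the start, 14.7% were called lower and 14.7% higher.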

How the data were processed

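The authors deposited whole-number tag counts per Entrez Gene ID from digital gene expression libraries of oligo(dT)-selected mRNA made at the Beijing Genomics Institute, 1 library per group. The submitters' processing notes name hg19, and the aligner is not given in the sources used here. No gene has a count of 1. The authors' TPM is scaled to the clean tags of the library, not to length, and was used only for clean-tag totals. The authors' deposited fold changes, p-values and FDR were not used. The value columns carry codes, of which SC was taken for shRNA-Con from its initials and the remaining S1 for shRNA-SOX2.

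Two-sided Fisher's exact tests (scipy 1.17.1, Python 3.11.15) were adjusted over all 13137 genes at the study's FDR of 0.001. Intervals are 95% Clopper-Pearson and cover counting error only. Medians use genes with at least 20 tags. Alternatives used TMM (edgeR 4.0.16, R 4.3.3), the median ratio (DESeq2 1.42.0), clean tags (3516266 and 3456234), minimum tags, thresholds and edgeR's exact test with an assumed coefficient of variation of 0.1, 0.2 or 0.4. The steps were tested on simulated data. All 44 members are named, and from each other list up to 5 called genes with the largest change in each direction, of which some are not reported here. Members and lists were chosen with earlier results of these data known. Pseudogenes and overlapping exons were read from GENCODE 29. A total of 13 members have a named pseudogene and 14 an exon overlap on the other strand. The 14 are CCNA2, PLK1, MAD2L1, SMC4, NCAPD2, NCAPG, STAG1, KIF2C, HMMR, KIF20A, KIF23, PRC1, ANLN and FOXM1.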

Additional observations from a re-analysis of the deposited data

How the results depend on the processing

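With 1 library per group no library could be left out, and no result here is replicated. No paired analysis was possible because only 1 library was made per group. The 11 members called lower became 17 per clean tag, 25 at an FDR of 0.05, 7 when a change of 1 on the log2 scale was also required, and 5 (TOP2A, HMMR, PRC1, CENPA and STAG1), 0 and 0 with an assumed coefficient of variation of 0.1, 0.2 and 0.4 in edgeR's exact test, which over all genes called 654 lower and 512 higher, 48 and 65, and 0 and 0. TMM called 9 of the 11, without CENPF and KIF23, and the clean-tag scaling called all 11 and CCNB2, CKS1B, CKS2, BIRC5, KIF2C and TPX2. The 0 members called higher became 1 (KIF11) at an FDR of 0.05. With at least 100 tags, 4 members in place of 9 were 2-fold lower. All genes were not counted at an FDR of 0.05, with the log2 requirement or for 2-fold falls at 100 tags. Those member counts therefore have no share to stand beside. The members' median log2 fold change of −0.58 was −0.50 with TMM, −0.51 with the median ratio and −0.69 per clean tag, and their summed log2 ratio of −0.45 was −0.37, −0.38 and −0.56, while the median of all genes moved from −0.10 to −0.03, −0.03 and −0.22. KIF20A turned from 0.060 to −0.053 per clean tag. Other planned settings kept the direction. The minimum of 100 tags for calls (8 lower) and the search within 50 bases of the start were added after seeing the data. The planned search for protein motifs was not run. Depth limits members such as CDC20, ESPL1, CDCA8 and KIF20A, with under 40 tags in the libraries together.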
